A study of Mus musculus with 22 samples.

Results

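Potassium channel genes were taken as every gene in the deposited expression matrix whose symbol begins with Kcn, followed by a family letter or letters and a number. The rule found 94 of 23361 genes, namely 93 genes for channel subunits and the noncoding Kcnq1ot1, which lies antisense to Kcnq1. By symbol, 40 were voltage-gated channel subunits, 15 inward rectifiers, 14 two-pore channels, 8 members of the calcium-activated class and 16 auxiliary subunits. A mean of at least 0.1 FPKM, a fragment count scaled for exon length and library size, over all libraries was required for testing, and 84 of the 94 reached it. The other 10 were Kcna7, Kcna10, Kcnv2, Kcnj1, Kcnj15, Kcnk15, Kcnk16, Kcnk18, Kcne1 and Kcnmb3, with means from 0 to 0.0950 FPKM, and Kcnk16 was listed at 0 in every library.

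The samples were mRNA libraries of microdissected hippocampal CA1, 1 from each of 22 female mice. The question was how ageing and long-term calorie restriction alter gene expression there. All mice were wild-type offspring of Swiss Webster and DBA/C57BL6 F1 parents. They were fed ad libitum (AL) or a calorie-restricted diet reduced in carbohydrate (CR), from early adulthood until they were sampled at 5 months (n = 5 per diet) or 15 months (n = 6 per diet). The 15-month mice were middle-aged, so the age comparison is between young adulthood and middle age, and males were not studied.

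Potassium channels let potassium leave the cell and so set the resting potential, end the action potential and pace repeated firing. Voltage-gated channels open on depolarization, inward rectifiers pass current best near rest and include channels opened by G proteins, two-pore channels carry the leak current, and calcium-activated channels shape the after-hyperpolarization. In CA1 pyramidal neurons the A-type current of Kv4 channels limits back-propagating action potentials in dendrites, the M-current of Kv7 channels restrains bursting, and SK channels damp synaptic potentials in spines. Auxiliary subunits carry no current of their own but alter the gating and transport of the pore subunits.

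To show the regulatory sequence of genes that moved in opposite directions with age, the bases just before the transcription start are given for 4 members. They were the 2 that rose most and, apart from Kcng2, the 2 that fell most with age in AL mice among called genes with a mean of at least 1 FPKM, no overlap between the ages, and a RefSeq start (GRCm38.p6) whose 250 preceding bases held at most 30 bases of an annotated exon. Kcnj12 and Kcnip3 rose, and Kcnj6 and Kcnab1 fell. Kcnip3, Kcnj6 and Kcnab1 had 3, 2 and 3 start sequences on record, of which 1 each is shown. The Kcnj12 start lies inside its GENCODE gene model (chr11:61022564-61071131), and that of Kcnab1 lies before its own (chr3:65109384-65378223). Capitals mark the GC box, the letters GGGCGG on either strand.
Kcnj12, chr11:61065554-61065803, + strand: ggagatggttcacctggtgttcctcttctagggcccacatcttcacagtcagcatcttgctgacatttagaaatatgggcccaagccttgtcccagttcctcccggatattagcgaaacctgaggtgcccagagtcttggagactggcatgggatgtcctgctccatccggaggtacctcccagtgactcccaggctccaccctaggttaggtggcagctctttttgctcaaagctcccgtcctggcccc
Kcnip3, chr2:127522095-127522344, - strand: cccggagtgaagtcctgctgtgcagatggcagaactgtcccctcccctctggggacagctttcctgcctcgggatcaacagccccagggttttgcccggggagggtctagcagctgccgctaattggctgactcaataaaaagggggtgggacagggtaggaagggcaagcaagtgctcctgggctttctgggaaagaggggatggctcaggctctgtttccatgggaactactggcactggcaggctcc
Kcnj6, chr16:94997697-94997946, - strand: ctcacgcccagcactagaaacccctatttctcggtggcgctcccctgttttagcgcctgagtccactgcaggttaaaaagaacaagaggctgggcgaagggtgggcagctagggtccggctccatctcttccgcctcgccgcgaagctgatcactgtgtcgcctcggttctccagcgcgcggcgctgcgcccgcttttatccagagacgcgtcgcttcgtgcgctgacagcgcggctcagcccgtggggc
Kcnab1, chr3:64948962-64949211, + strand: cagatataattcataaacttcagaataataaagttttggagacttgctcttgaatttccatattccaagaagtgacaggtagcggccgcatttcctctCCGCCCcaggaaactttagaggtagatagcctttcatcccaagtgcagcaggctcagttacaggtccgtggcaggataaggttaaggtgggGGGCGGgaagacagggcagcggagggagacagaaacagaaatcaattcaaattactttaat
Only the Kcnab1 sequence held the GC box, at 2 places, and none of the 4 held an E-box (CACGTG), a cyclic AMP response element (TGACGTCA) or a TATA box (TATAAA). Of the 94 members, 69 had a promoter entry. The GC box occurred in 41 of them (59.4%), against 35.4% of all 27025 genes with an entry, and the median GC content of the sequences was 58.8% against 52.4%. A gene counted as holding a motif if any of its entries did, and the number of entries per gene was not matched. The GC box was found in 9 of 11 members called higher and in 7 of 8 called lower with age in AL mice, so the motif did not separate the directions. The E-box was present in 7.25% of members and 6.86% of all genes, the TATA box in 4.35% and 14.3%, and the full response element in 0 of 69 members and 1.77% of all genes. Such a match describes letters in a window and says nothing of whether a factor binds.

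Between 86 and 92 of the 94 members were above 0 FPKM in each library, and the median gene of a library lay between 2.51 and 3.10 FPKM. The 5 CA1 pyramidal markers were measured in every group, with a summed level between 93.4 and 458 FPKM. Markers of neighbouring tissue were present as well, and their balance differed with age. A region score, the mean log2 level of 9 neocortex and subiculum markers minus that of the 5 CA1 markers, was -3.54 ± 0.69 (SD, n = 5) for the young AL group and -0.97 ± 1.0 (SD, n = 6) for the older one. The highest 5-month AL library was at -2.57 and the lowest 15-month AL library at -2.03, so the ages did not overlap in AL mice. Under CR the score was -3.52 ± 0.25 (SD, n = 5) in young and -1.98 ± 0.99 (SD, n = 6) in older mice. There the ages overlapped, the highest 5-month library being at -3.22 and the lowest 15-month library at -3.33. The 2 highest scores of all libraries, 0.29 and 0.22, were those of AL replicates 4 and 5 at 15 months. In bulk tissue, fewer cells of a type and less RNA per cell cannot be told apart.

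Kcnab2, the Kv1 β2 subunit, was highest with a mean of 192 FPKM over the 22 libraries. Other abundant members were Kcnip2 (80.1 FPKM), a calcium-binding partner of Kv4 channels, and Kcnab1 (62.9 FPKM), the Kv1 β1 subunit. The highest inward rectifiers were Kcnj10 (46.8 FPKM), the main potassium-clearing channel of astrocytes, and the G-protein-gated subunits Kcnj9 (45.4 FPKM) and Kcnj3 (43.7 FPKM). Kcnk1 led the two-pore class at 37.9 FPKM, and Kcnn2, an SK channel, led the calcium-activated class at 27.2 FPKM. Of the 94 members, 72 had a mean of at least 1 FPKM and 38 of at least 10 FPKM, and the median member was at 5.48 FPKM. The plot of levels by class shows the spread.

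**Figure D1:**
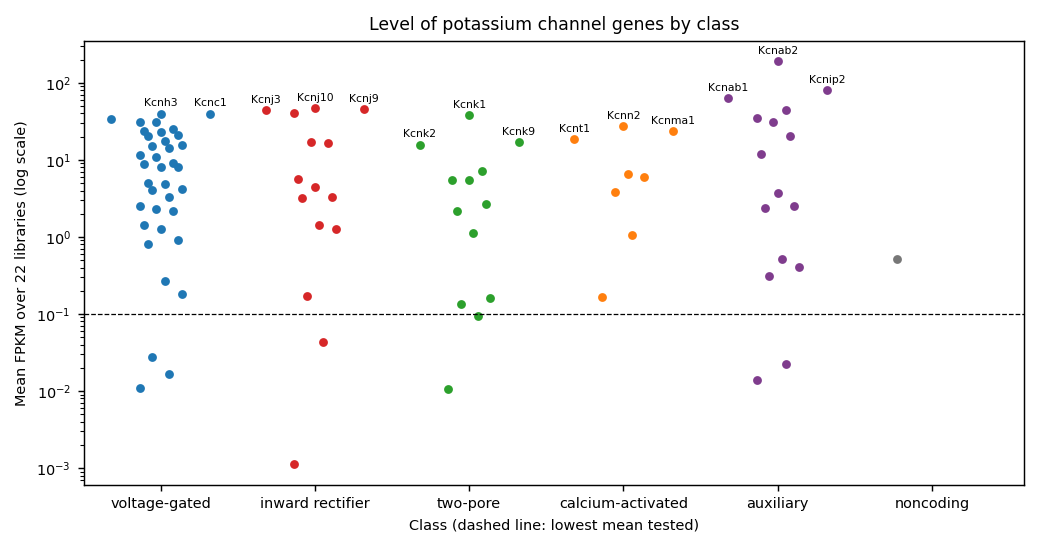
Mean FPKM over 22 libraries (vertical log axis) for 90 members above 0, 1 point per gene, set apart by class, with high genes of each class named. Kcnab2 at 192 FPKM stands above all others, and the dashed line at 0.1 FPKM is the lowest mean that was tested.

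Summed over the 93 channel genes, the message differed less between groups than between the mice of a group, whereas the auxiliary sum was lower in older AL mice. Under AL the sum was 1455 ± 54.1 FPKM (SD, n = 5) in young and 1443 ± 106 FPKM (SD, n = 6) in older mice. Under CR it was 1446 ± 71.7 FPKM (SD, n = 5) and then 1455 ± 126 FPKM (SD, n = 6). Auxiliary subunits of young AL mice summed to 535 ± 40.6 FPKM (SD, n = 5), with libraries from 485 to 595 FPKM. Those of older AL mice summed to 421 ± 39.9 FPKM (SD, n = 6), with libraries from 357 to 476 FPKM. The ages therefore did not overlap in AL mice. Kcnab2 was the largest part of these sums, with means of 228 FPKM in young and 140 FPKM in older AL mice, so they largely follow this gene. Of the 14 auxiliary members tested, 10 had a negative and 4 a positive log2 fold change with age in AL mice. In CR mice the auxiliary sums overlapped, at 515 ± 57.1 FPKM (SD, n = 5) before and 489.7 ± 96.7 FPKM (SD, n = 6) after. For inward rectifiers the AL sums, 207 ± 10.2 FPKM (SD, n = 5) against 249 ± 27.5 FPKM (SD, n = 6), overlapped between ages.

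The first comparison, AL mice at 15 against 5 months, asks how these genes differ with age on an unrestricted diet. Of the 84 members tested, 25 (29.8%) passed an adjusted p of 0.05 in limma, where 20.6% of all 16978 genes tested passed. Higher at 15 months were 14 members (10.7% of all genes) and lower were 11 (9.97% of all genes). The median log2 fold change over the members was 0.15, with a median size of 0.38, beside -0.00 and 0.20 over all genes tested. An unadjusted p under 0.05 was found for 41 members, beside 35.2% of all genes. The levels of the 2 ages did not overlap for 12 members that were higher and 8 that were lower, together 20 of 84, where 14.0% of all genes did not overlap (7.27% higher and 6.77% lower). Fold changes are given as log2 of FPKM + 0.1 with the standard error, which understates the change of genes near or under that constant. The plot of age changes gives the members' values, with called members of either direction in every class except the two-pore channels, where the only call was a rise.

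**Figure D2:**
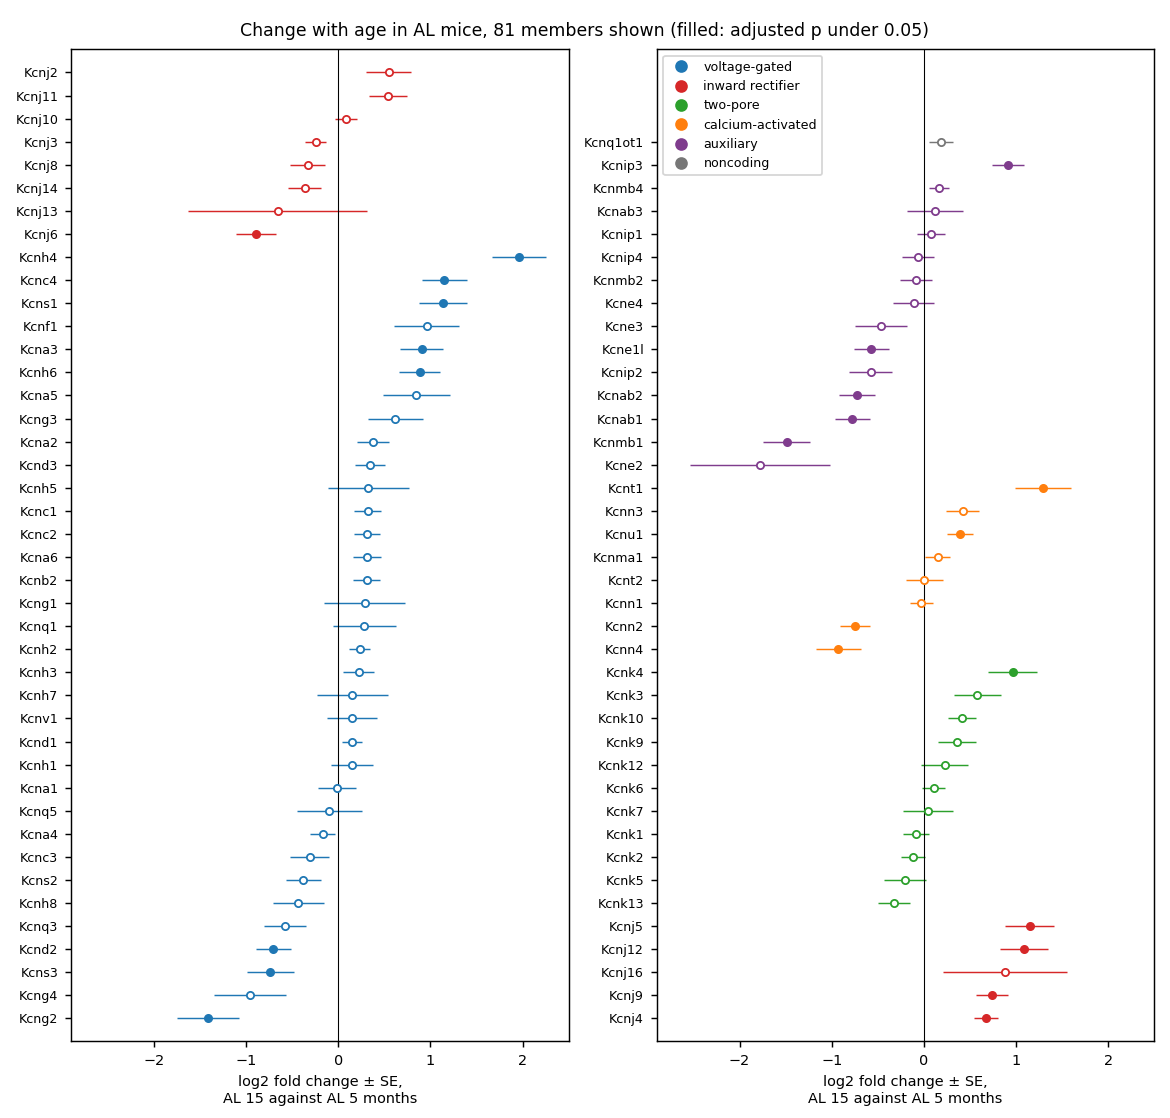
Log2 fold change at 15 against 5 months in AL mice (horizontal axis, bars are standard errors) for 81 of the 84 members tested, ordered by class and coloured by it. Filled points passed an adjusted p of 0.05, and they run from Kcnmb1 at -1.49 to Kcnh4 at 1.96.

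Among the 37 voltage-gated subunits tested, 6 rose and 4 fell with age in AL mice. Beside this count and those of the classes below stand 10.7% of all genes higher and 9.97% lower. Kcnh4, a slowly gating channel of the ether-a-go-go family found mainly in forebrain, changed most among the called members. At 5 months its levels were 1.19, 1.06, 0.603, 1.61 and 0.703 FPKM, and at 15 months the lowest was 2.07, the median 4.17 and the highest 8.08 FPKM. Every older AL mouse was above every younger one, and the log2 fold change was 1.96 ± 0.29 (SE; adjusted p = 0.000401, limma). Its relative Kcnh6 rose by 0.88 ± 0.22 (SE; adjusted p = 0.00906, limma) from a mean of 0.667 to 1.31 FPKM, again with no overlap.

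Kcnc4 encodes a fast Kv3 channel that speeds repolarization. Its 5-month AL levels were 27.7, 21.7, 14.1, 21.8 and 17.6 FPKM, and the 15-month libraries ran from 31.8 through a median of 44.4 to 62.8 FPKM. No library of one age reached into the other, and the log2 fold change was 1.15 ± 0.25 (SE; adjusted p = 0.0032, limma). Also higher were Kcns1, a silent subunit that modifies other channels, with a mean of 3.35 FPKM at 5 and 7.83 FPKM at 15 months, and the Kv1 subunit Kcna3, with means of 2.14 and 4.18 FPKM. For both of these genes the ages overlapped, and the adjusted p was 0.00464 for Kcns1 and 0.0116 for Kcna3 (limma).

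The voltage-gated genes that fell included Kcnd2. This gene, typical of CA1 pyramidal cells as the Kv4 subunit of the dendritic A-type current, stood at 32.4, 36.3, 43.3, 43.8 and 38.0 FPKM at 5 months. At 15 months the lowest AL library was at 18.3, the median at 22.6 and the highest at 31.0 FPKM, below all younger mice. Its log2 fold change was -0.70 ± 0.19 (SE; adjusted p = 0.0142, limma). Kcnq3, a Kv7 subunit, averaged 17.5 ± 2.21 FPKM (SD, n = 5) and 11.7 ± 1.65 FPKM (SD, n = 6), and the ages did not overlap, although the adjusted p was 0.074 (limma).

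Kcng2 and Kcns3, like Kcns1 silent subunits that form no channel on their own, also fell. Kcng2 was at 12, 13.5, 11.4, 11.7 and 12.7 FPKM at 5 months, and at 15 months it ran from 2.52 through a median of 5.57 to 7.27 FPKM. Its log2 fold change was -1.41 ± 0.33 (SE; adjusted p = 0.00576, limma), with no overlap. An unstranded library kit was used, so reads from opposite strands cannot be told apart, and 9.10% of the exon bases of Kcng2 are shared with a transcript on the other strand. Kcns3, which is known from interneurons, averaged 6.02 and 3.91 FPKM, and its adjusted p of 0.0426 (limma) rose above 0.05 when any of 10 single libraries was left out, to 0.0945 without AL replicate 2 at 5 months. The interneuron-typical Kv3 genes Kcnc1 and Kcnc2 had log2 differences of 0.32 and 0.32 with adjusted p of 0.118 and 0.117 (limma), and none of 8 interneuron markers was called.

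Of 13 inward rectifiers tested, 4 rose and 1 fell with age in AL mice. Kcnj4, a strong rectifier that sits at excitatory synapses, was at 31.4, 35.1, 35.4, 40.7 and 27.0 FPKM at 5 months and between 47.1 and 57.9 FPKM, with a median of 54.6 FPKM, at 15 months. The older mice were all above the younger ones, and the log2 fold change was 0.67 ± 0.13 (SE; adjusted p = 0.00198, limma). Kcnj12, another strong rectifier, rose in mean from 2.23 ± 0.308 FPKM (SD, n = 5) to 4.89 ± 0.943 FPKM (SD, n = 6) without overlap (adjusted p = 0.00615, limma). Kcnj5 rose from 0.0812 to 0.338 FPKM in mean, a level so low that 1 library at 0.858 FPKM (replicate 4) weighed on the mean.

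The G-protein-gated (GIRK) subunits, through which GABA-B and other receptors slow firing, moved apart. Kcnj9 (GIRK3) was at 39, 31.0, 33.4, 35.5 and 30.4 FPKM at 5 months and at 40.1, 57.2 and 67.9 FPKM as lowest, median and highest at 15 months. It rose by 0.74 ± 0.17 (SE; adjusted p = 0.00477, limma), with no overlap. Kcnj6 (GIRK2) was at 22.7, 21.9, 22.7, 21.5 and 17.8 FPKM at 5 months and at 10.1, 11 and 13.6 FPKM as lowest, median and highest at 15 months. It showed a log2 fold change of -0.89 ± 0.22 (SE; adjusted p = 0.00726, limma), and the ages were again apart. Kcnj3 (GIRK1), the most abundant of the neuronal subunits with Kcnj9, averaged 46.3 and 39.3 FPKM with an adjusted p of 0.126 (limma). Shared exon bases with a transcript on the other strand came to 31.1% for Kcnj3, 4.98% for Kcnj6 and 4.01% for Kcnj9. Kcnj10, the astrocyte channel, was at 45.0 ± 5.05 FPKM (SD, n = 5) in young and 48.0 ± 6.76 FPKM (SD, n = 6) in older mice, with an adjusted p of 0.642 (limma), and its astrocyte partner Kcnj16 ranged from 1.09 to 12.7 FPKM over AL mice, with an adjusted p of 0.368 (limma).

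Of 11 two-pore leak channels tested, 1 was called. It was Kcnk4 (TRAAK), a channel opened by stretch, heat and lipids. Its levels at 5 months were 6.32, 5.80, 3.42, 2.84 and 2.53 FPKM, and at 15 months they ran from 4.23 through a median of 7.92 to 11.1 FPKM. The ages overlapped, and the log2 fold change of 0.96 ± 0.27 (SE; adjusted p = 0.0156, limma) had an adjusted p of 0.0529 without AL replicate 4 at 5 months. Kcnk4 shares 13.1% of its exon bases with Catsperz on the same strand. The abundant Kcnk1, Kcnk9 and Kcnk2 had log2 differences of -0.09, 0.36 and -0.12 with adjusted p of 0.684, 0.217 and 0.55 (limma). Kcnk13 and Kcnk6, which are found in microglia, had differences of -0.33 and 0.11, neither of them called.

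In the calcium-activated class of 8 genes, 2 rose and 2 fell with age in AL mice, and the largest rise was in a gene that is opened by sodium. Kcnt1 (Slack) was at 12.7, 9.32, 10.2, 15.4 and 12.7 FPKM at 5 months and at 26.0, 29.4 and 33.5 FPKM as lowest, median and highest at 15 months. These 2 groups were widely separated, and the log2 fold change was 1.29 ± 0.30 (SE; adjusted p = 0.00587, limma). The SK channel Kcnn2 was at 30.3, 25.1, 41.3, 41.3 and 36.0 FPKM at 5 months and between 14.0 and 26.4 FPKM, with a median of 20.7 FPKM, at 15 months. A single 5-month library lay within the older range, and the log2 fold change was -0.75 ± 0.17 (SE; adjusted p = 0.00396, limma). Of the others, Kcnn4, an intermediate-conductance channel of blood and glial cells, fell from a mean of 0.248 to 0.0890 FPKM (adjusted p = 0.0111, limma). Kcnu1, a sperm channel named here to complete the calls of the class, rose from 0.949 to 1.27 FPKM (adjusted p = 0.0497, limma). Of the 22 fits with 1 library left out, 16 did not call Kcnu1, with an adjusted p of up to 0.133 without AL replicate 4 at 5 months. Kcnma1, the BK channel, was at 21.7 ± 2.61 FPKM (SD, n = 5) and 24.0 ± 2.86 FPKM (SD, n = 6), with an adjusted p of 0.481 (limma).

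Among 14 auxiliary subunits tested, 1 rose and 4 fell with age in AL mice. Kcnab2 was at 194, 218, 277, 229 and 223 FPKM at 5 months and at 98.4, 140.2 and 185 FPKM as lowest, median and highest at 15 months. Its paralog Kcnab1, a β subunit that gives Kv1 channels fast inactivation, was at 68.3, 64.6, 88.5, 80.2 and 77.4 FPKM, then at 30.1, 44.5 and 61.3 FPKM. Neither gene overlapped between ages, and the log2 fold changes were -0.72 ± 0.20 (SE; adjusted p = 0.0133, limma) for Kcnab2 and -0.78 ± 0.19 (SE; adjusted p = 0.00706, limma) for Kcnab1. Kcnip3, a Kv4 partner that also acts as a calcium-dependent transcriptional repressor, went the other way. It was at 27.1, 30.3, 33.5, 33.0 and 32.8 FPKM at 5 months and at 41.9, 57.3 and 79.2 FPKM at 15 months, a rise of 0.91 ± 0.17 (SE; adjusted p = 0.00148, limma) with no overlap.

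The Kv4 partner Kcnip2, more abundant than Kcnip3, averaged 92.6 ± 9.94 FPKM (SD, n = 5) and later 64.0 ± 19.6 FPKM (SD, n = 6) under AL, with overlap and an adjusted p of 0.0767 (limma), and Kcnip4 had a difference of -0.06. Of the BK β subunits, the neuronal Kcnmb4 had a difference of 0.16 with an adjusted p of 0.296 (limma). Kcnmb1, the smooth muscle form, fell without overlap, from levels of 0.307, 0.482, 0.876, 0.480 and 0.790 FPKM to a lowest of 0.0486, a median of 0.131 and a highest of 0.300 FPKM. Its log2 fold change was -1.49 ± 0.25 (SE; adjusted p = 0.000757, limma), and none of 6 mural cell or 6 endothelial markers was called. Kcne1l, a single-span subunit, averaged 4.40 and 3.05 FPKM with an adjusted p of 0.0412 (limma), which rose above 0.05 when any of 8 single libraries was left out, to 0.106 without AL replicate 4 at 5 months. The values of 10 of these genes are drawn library by library in the plot of FPKM by diet and age.

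**Figure D3:**
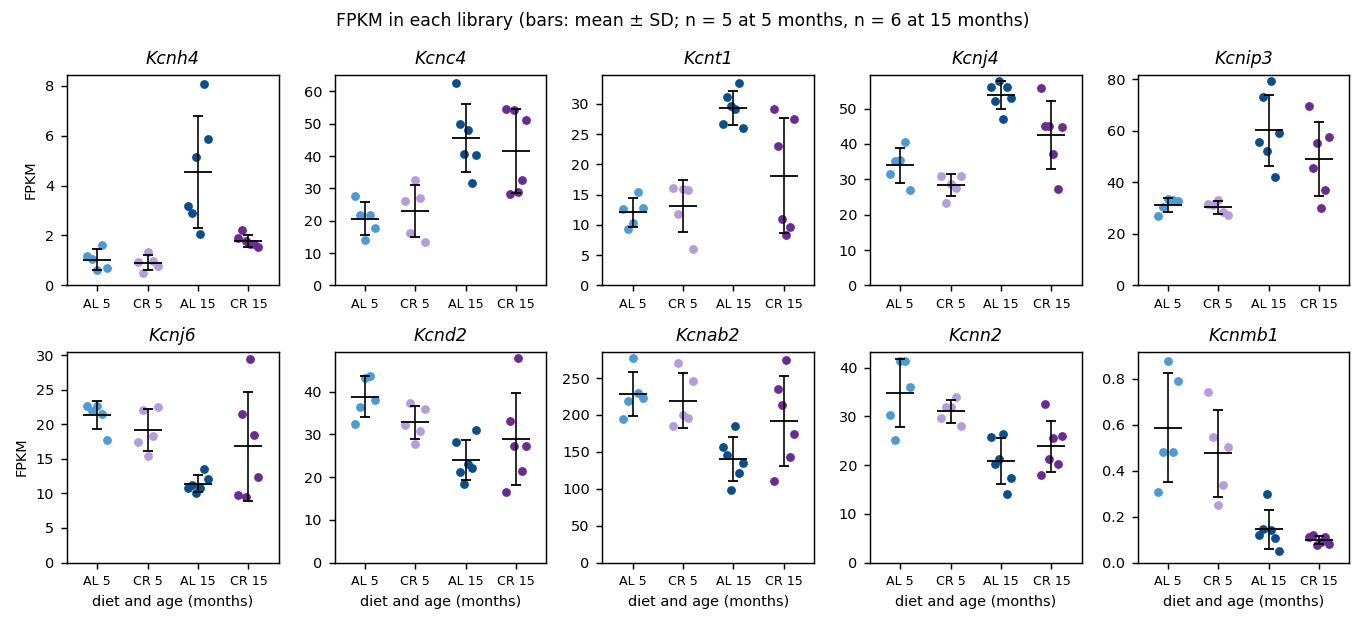
FPKM (vertical axes from 0) of 10 members in each of 22 libraries, by diet and age in months, 1 point per mouse with the mean and SD as black bars. In AL mice the 5- and 15-month points do not overlap for any of the 10 except Kcnn2, while the CR mice at 15 months spread widely for Kcnt1, between 8.33 and 29.1 FPKM, and for Kcnj6.

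Channels best known from CA1 pyramidal neurons were read as a list of 15 members. With age in AL mice 4 of them fell (9.97% of all genes), among them Kcnd2, Kcnn2 and Kcnj6, and 1 rose, Kcnj9 (10.7% of all genes). The median log2 fold change of the list was -0.17. The other 10, among them Kcna1, Kcna2, Kcna4, Kcnma1 and Kcnj3, were not called. Of 17 genes for proteins that bind these channels, 16 were tested, and 3 rose (10.7% of all genes) and 2 fell (9.97%) in AL mice. Dpp10, a transmembrane partner of Kv4 channels, had means of 14.0 and 49.9 FPKM and rose by 1.80 ± 0.34 (SE; adjusted p = 0.00136, limma). Its relative Dpp6 averaged 103 and 81.9 FPKM and had a log2 fold change of -0.33 ± 0.07 (SE; adjusted p = 0.00284, limma). Kctd12, which tunes the GABA-B receptors that open GIRK channels, had means of 46.9 and 26.0 FPKM and a log2 fold change of -0.87 ± 0.18 (SE; adjusted p = 0.00215, limma). The BK γ subunit Lrrc55 rose by 1.19 and the Kv1-linked Adam22 by 0.35 (adjusted p = 0.0271 and 0.0111, limma).

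Markers of CA1 and of neighbouring regions also differed with age in AL mice. Called with age in AL mice were 4 of 9 neocortex and subiculum markers, all higher, 3 of 7 thalamic markers, all higher, 3 of 5 CA1 markers, all lower, and 2 of 5 dentate granule cell markers, both lower. Of the CA3 markers, 1 of 5 rose and 1 fell, and of 10 choroid plexus markers 4 fell. In the glial lists 1 of 6 oligodendrocyte and 1 of 6 microglial markers fell, and of 6 astrocyte markers 1 rose and 1 fell. Beside these marker counts, 20.6% of all genes tested were called in this comparison. The part of these cells in the channel results was not tested. When the region score was added to the model, 0 of the 84 members were called, as were 0 of all 16978 genes. Of the 25 members called without the score, 5 had an unadjusted p under 0.05 in limma with it. Over all genes tested, a set not picked by calls, the share was 15.2%. All 25 called without the score kept their sign, and the median share of the change that remained was 0.512. Age and the score did not overlap in AL mice, so their parts in these changes cannot be told apart by this model. In CR mice the model with the score called 0 of 84 members, beside 0.430% of all genes. The 6 members called in CR mice without the score all kept their sign, with a median share of 0.822 of the change. All 6 also had an unadjusted p under 0.05 in limma with the score, and the share over all genes is not given here.

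The members differed in how much of the AL change remained with the region score in the model. None was called there, and this model cannot tell age from the score, so the values below are descriptive. Kcnip3 and Kcnj4 kept their size, at 0.92 ± 0.28 and 0.66 ± 0.21 (SE; unadjusted p = 0.00408 and 0.00684, limma), and Kcnh4 was at 1.21 (unadjusted p = 0.00991, limma). Kcnmb1 also had an unadjusted p under 0.05, at -0.81. By contrast Kcnab2 was at -0.04, Kcnn2 at -0.07, Kcnab1 at -0.11 and Kcng2 at -0.22. When AL replicates 4 and 5 at 15 months were both left out, a choice made after the data were seen, 17 of the 25 were still called and all 25 kept their sign. Both sets of values are shown in the plot of the region score.

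**Figure D4:**
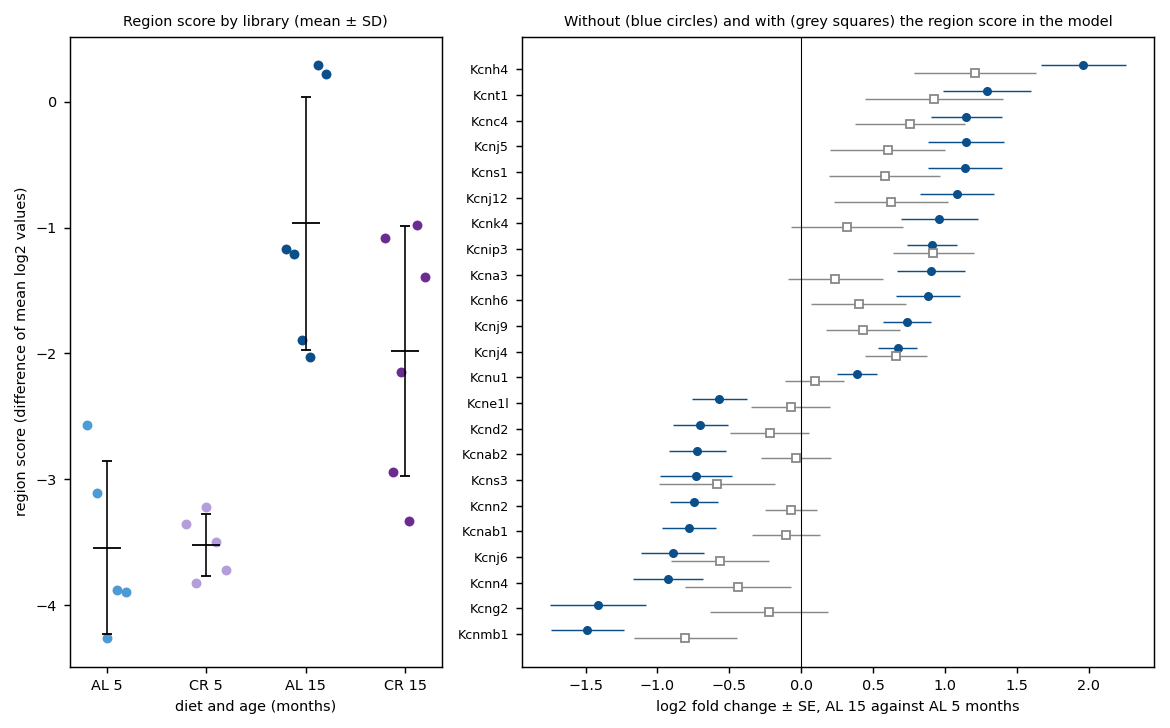
Left, region score (difference of mean log2 levels) of each library by diet and age, with mean and SD. Right, log2 fold change with age in AL mice and its standard error for 23 of the 25 called members, without the score in the model (blue circles) and with it (grey squares), where Kcnip3 and Kcnj4 stay in place and Kcnab2 moves from -0.72 to -0.04.

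The second comparison asks the same of CR mice. There 6 of 84 members (7.14%) were called, against 3.36% of all genes, with 3 higher (1.10% of all genes) and 3 lower (2.26%). At 15 months 4 members were above and 4 below every 5-month CR library, where 3.26% of all genes did not overlap (1.15% higher and 2.11% lower). An unadjusted p under 0.05 was found for 22 members, beside 18.0% of all genes. Kcnj2, a classical inward rectifier of the resting membrane, was at 1.88, 1.38, 1.26, 1.27 and 1.76 FPKM at 5 months and at 2.48, 3.49 and 4.68 FPKM as lowest, median and highest at 15 months. It rose without overlap by 1.18 ± 0.24 (SE; adjusted p = 0.00843, limma), while in AL mice its difference was 0.55 with an adjusted p of 0.116 (limma).

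Kcnj4 and Kcnip3 rose in CR mice as they had in AL mice. Kcnj4 was at 31.0, 23.4, 28.7, 27.4 and 31.0 FPKM at 5 months and between 27.4 and 55.9 FPKM, with a median of 44.9 FPKM, at 15 months, and the log2 fold change was 0.56 ± 0.13 (SE; adjusted p = 0.023, limma). Without CR replicate 1 at 5 months or CR replicate 0 at 15 months its adjusted p was 0.0785 or 0.0531. Kcnip3 averaged 30.3 ± 2.46 FPKM (SD, n = 5) and 49.2 ± 14.4 FPKM (SD, n = 6), and its adjusted p of 0.0435 (limma) was over 0.05 under 23 of the 34 alternatives tried, at most 0.109 with 1 library left out (CR replicate 4 at 5 months) and 0.689 with the choroid plexus score in the model. Kcnmb1 fell without overlap from 0.475 ± 0.190 FPKM (SD, n = 5) to 0.0982 ± 0.0187 FPKM (SD, n = 6), a log2 fold change of -1.48 ± 0.25 (SE; adjusted p = 0.0021, limma). Kcnn4 also fell without overlap, from 0.270 to 0.0861 FPKM, with an adjusted p of 0.0301 (limma) that reached 0.0953 without CR replicate 4 at 5 months.

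The AL and CR age comparisons share no library, so their lists can be set side by side. Called under both diets were Kcnip3, Kcnj4, Kcnmb1 and Kcnn4, which are 16% of the AL calls and 66.7% of the CR calls. All 25 members called in AL mice had the same sign in CR mice, and 24 of them were smaller in size there. The matching shares over all genes were not computed, so these counts do not set the members apart from other genes. The 25 were picked by their AL values, a choice that favours larger sizes in AL mice. The count of smaller sizes is therefore no test of diet. The test of the difference itself, the age by diet interaction, called 0 of 84 members and 0 of all genes (limma), with 6 members (7.66% of all genes) at an unadjusted p under 0.05. No permutation test was run for the interaction. Kcnh4, Kcnh6, Kcnt1 and Kcnab1 were the 4 AL calls among these 6, with interaction values of -1.01, -0.77, -0.93 and 0.59 and adjusted p from 0.635 to 0.639. The plot of the 2 age changes shows the pairs.

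**Figure D5:**
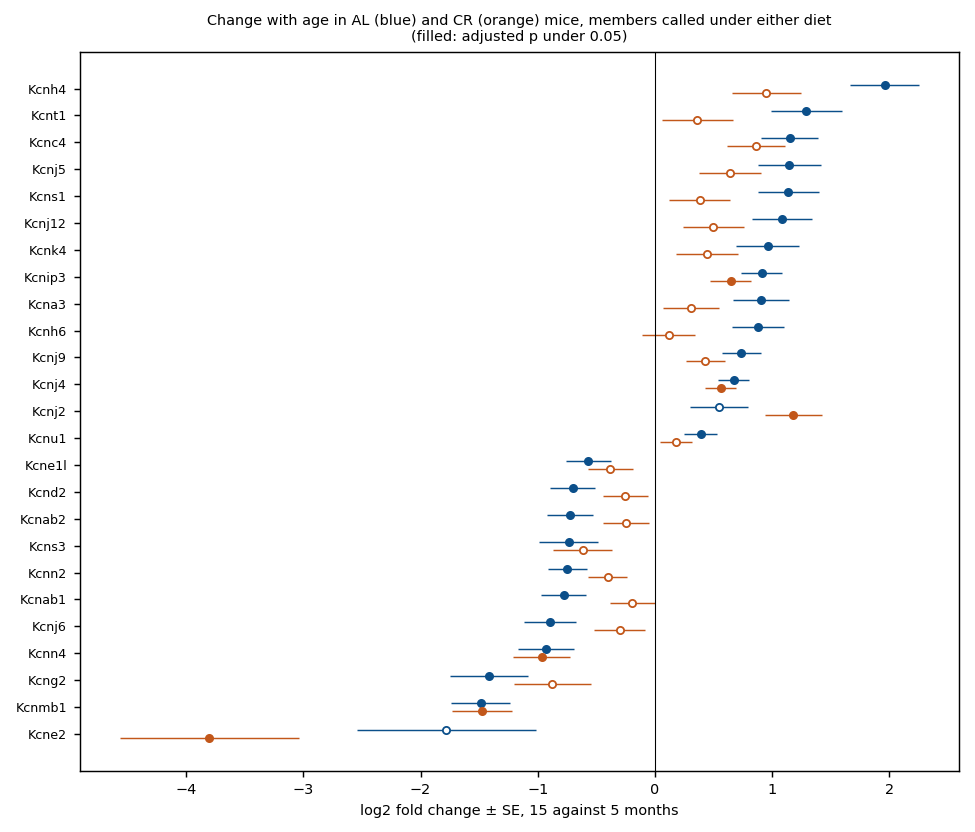
Log2 fold change at 15 against 5 months with its standard error in AL mice (blue) and CR mice (orange) for 25 of the 27 members called under either diet, filled where the adjusted p was under 0.05. Except for Kcnj2, Kcne2 and Kcnn4, the orange point of each gene lies closer to 0 than the blue one. Most of these genes were picked by their AL values, which favours larger blue sizes.

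The largest difference in CR mice was that of Kcne2, a single-span subunit that is abundant in choroid plexus epithelium. Its 5-month CR levels were 0.675, 0.845, 0.925, 10.8 and 36.0 FPKM, and the 15-month levels ran from 0.0546 through a median of 0.118 to 0.224 FPKM. The 2 high libraries were replicates 3 and 4, and without overlap the log2 fold change was -3.80 ± 0.76 (SE; adjusted p = 0.00693, limma). In AL mice the difference of Kcne2 was -1.78, with overlap and an adjusted p of 0.102 (limma). The choroid plexus channel Kcnj13 was high in the same 2 libraries, at 19.0 and 58.8 FPKM beside 0.891, 1.37 and 1.11 FPKM in the others, and was not called (adjusted p = 0.0636, limma). Kcnj13 shares 49.1% of its exon bases with Gigyf2 on the other strand. The mean log2 level of 10 choroid plexus markers was likewise highest in these libraries, at 2.41 and 4.68 against 0.00 to 0.24 in the other 5-month CR mice, and 8 of the 10 markers fell with age in CR mice. With that level in the model the difference of Kcne2 was -0.18 and 0 of the 84 members were called in CR mice, as were 0 of all genes. Age and that level did not overlap in CR mice, the lowest at 5 months being 0.00 and the highest at 15 months -1.28. Their parts in these changes therefore cannot be told apart by this model. With the same level in the model 21 of the 25 calls in AL mice stayed, beside a fall in the share of all genes called from 20.6% to 12.2%.

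The third comparison, CR against AL at 15 months, asks whether restriction alters these genes in middle age. No member was called in limma (0 of 84, where 0.742% of all genes were called), 15 had an unadjusted p under 0.05 (17.1% of all genes), and 7 an exact permutation p under 0.05 (11.3% of all genes). No member's groups were free of overlap, where 0.984% of all genes were. By sign, 60 members were lower and 24 higher in CR mice, with a median of -0.14 beside -0.00 over all genes, and the 11 two-pore channels had negative differences, from -0.54 to -0.00, none of them called. The region score differed in the same comparison, with the means of -0.97 in AL and -1.98 in CR mice given above and median marker differences of 0.69 for CA1, 1.38 for dentate and -0.42 for neocortex and subiculum, and its part was not tested. This comparison shares the 15-month AL libraries with the AL age comparison.

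Kcnh4 came closest. Its CR levels at 15 months were 1.54, 1.72 and 2.20 FPKM as lowest, median and highest, against 2.07, 4.17 and 8.08 FPKM in AL mice of that age. Only the highest CR library entered the AL range, and the log2 fold change was -1.16 ± 0.28 (SE; adjusted p = 0.0547, limma; exact permutation p = 0.00433). Other low p-values were those of Kcnt1 with -0.87, Kcns1 with -0.73, Kcnh6 with -0.65, Kcnab1 with 0.48 and Kcnj4 with -0.37 (adjusted p from 0.141 to 0.187, limma). Without CR replicate 0 at 15 months 4 members were called, Kcnh4, Kcnh6, Kcnj4 and Kcnt1, where 4.31% of all genes were called, and without CR replicate 5 there were 2, Kcnh4 and Kcns1, where 2.90% were, so both counts were near the share over all genes. Without AL replicate 3 the only call was Kcnh4, beside 0.406% of all genes. In CR mice at 15 months Kcnt1 ran from 8.33 to 29.1 FPKM, and Kcnj6 from 9.44 to 29.5 FPKM, a spread wider than in any other group. None of the 16 partner genes was called, with Kctd12 closest at 0.63 ± 0.17 (SE; adjusted p = 0.077, limma).

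The last comparison, CR against AL at 5 months, asks about restriction in young adults. No member was called in limma (0 of 84, as for 0% of all genes), 5 had an unadjusted p under 0.05 (4.65% of all genes), and 7 an exact permutation p under 0.05 (7.60% of all genes). The lowest unadjusted p was that of Kcnj2, at 1.51 ± 0.292 FPKM in CR and 2.93 ± 1.17 FPKM in AL mice (SD, n = 5 each), with a log2 fold change of -0.85 ± 0.26 (SE; adjusted p = 0.899, limma). Kcnh8, a gene chosen after its values were seen, was the only member whose groups did not overlap, being lower in CR mice (0.830% of all genes), with means of 0.132 FPKM in CR and 0.245 FPKM in AL mice and an exact permutation p of 0.00794, the smallest that 5 against 5 mice allow.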

How the data were processed

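Messenger RNA of hippocampal CA1 was sequenced from 22 mice in 4 groups (5 AL and 5 CR at 5 months, 6 AL and 6 CR at 15 months). The authors aligned reads to mm10 with TopHat, removed duplicates with Picard and deposited FPKM values from Cufflinks (versions not given in the sources used here). Read counts could not be recovered, since at most 2.26% of low genes in 3 library pairs lay on a common ratio, so the depth behind single values is unknown and errors come from the spread between mice.

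All 16978 genes averaging at least 0.1 FPKM were fitted as log2(FPKM + 0.1) in 1 limma model of 4 groups (limma 3.58.1, R 4.3.3, eBayes with trend), with two-sided p-values adjusted by Benjamini-Hochberg over all genes and called under 0.05. Single genes were also compared by exact two-sided permutation of group means, whose smallest p is 0.00216 at 5 or 6 against 6 mice and 0.00794 at 5 against 5. In simulated data, 100 genes per comparison were changed by 1 on the log2 scale. The steps recovered 86 for age in AL mice (11 unchanged genes called) and 95 for age in CR mice (6 called). For diet at 15 months they recovered 86 (9 called). These counts describe the simulated data only and were not split by FPKM level. Recovery in the mice themselves, where Kcnt1 and Kcnj6 spread more widely at 15 months under CR, was not tested.

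The members, gene lists and tests were chosen with earlier results of these data known. Named were all called members (up to 12 per direction and comparison), the 3 most abundant of each class, 15 channels known in CA1 and 10 known in other cells. Counts cover all members, but 3 members are not reported here by name or in the figures. Alternatives were other pseudocounts, filters, scalings and fits, the replicate number as a block, region and choroid plexus scores, and each library left out. Gene models were GENCODE M21 (GRCm38). Replicate numbers did not pair mice: the correlation of deviations ran from -0.14 to 0.16 over 31 pairs with the same number, 2 of them above 0.1. Tables and figures used Python 3.11.15, numpy 2.4.6, pandas 2.3.3 and matplotlib 3.10.9.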

Additional observations from a re-analysis of the deposited data

Results flagged for a closer look

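Over the named members, 192 gene and group combinations were examined for 1 library far from the others of its group by Dixon's criterion, which chance meets in about 1 of 20, and 9 met it. In AL mice at 5 months these were Kcns1 in replicate 0 (5.08 FPKM, the others 2.64 to 3.13 FPKM), Kcna3 in replicate 2 (1.46 FPKM, the others 2.16 to 2.53 FPKM), Kcnc2 in replicate 3 (18.2 FPKM, the others 22.9 to 24.6 FPKM) and Kcnj6 in replicate 4 (17.8 FPKM, the others 21.5 to 22.7 FPKM). In AL mice at 15 months Kcnj5 was high in replicate 4 (0.858 FPKM, the others 0.163 to 0.314 FPKM) and Kcnj10 low in replicate 2 (35.7 FPKM, the others 48.0 to 56.3 FPKM). In CR mice at 5 months Kcnj3 was low in replicate 2 (39.9 FPKM, the others 45.3 to 47.6 FPKM). In CR mice at 15 months Kcnma1 was low in replicate 2 (14.3 FPKM, the others 22.6 to 29.6 FPKM) and Kcnc1 high in replicate 5 (46.5 FPKM, the others 35.2 to 37.7 FPKM). Each of the 9 lay in a different library. Without the library in question, Kcns1, Kcna3, Kcnj6 and Kcnj5 were still called with age in AL mice.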

How the results depend on the processing

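No direction of a called member was reversed under any alternative, and the share of all genes called, given here in parentheses, moved with the members' counts. The 25 calls with age in AL mice (20.6%) became 0 with the region score in the model (0%), 18 with AL replicates 4 and 5 at 15 months both left out (16.2%, chosen after the data were seen), 33 when only the groups compared were fitted (25.4%), and 21 to 27 with single libraries left out (14.0% to 23.1%). The 6 calls with age in CR mice (3.36%) became 3 when a mean of at least 1 FPKM was required (2.20%), 0 with the region score (0.430%), 0 with the choroid plexus score (0%) and 3 to 8 with single libraries left out (1.95% to 4.56%), being 3 without CR replicate 1 at 5 months or CR replicate 0 at 15 months. The 0 calls for CR against AL at 15 months (0.742%) became 1 (Kcnh4) with a pseudocount of 1 (0.913%) and 0 to 4 with single libraries left out (0.0883% to 4.31%). The cause of these shifts was not tested. The replicate number, which pairs no mice here, was also used as a block. With it, 23 members were called with age in AL mice (22.1%) and 7 with age in CR mice (3.63%). The block gave 0 calls for CR against AL at 15 months (1.90%) and 0 in the remaining comparisons (0%). Of 31 single-gene calls, 31 were lost with the region score, 10 with the choroid plexus score, 5 when only the groups compared were fitted, 3 with the block, and at most 5 with any single library left out. With a common median or quantile normalization 25 and 23 members were called with age in AL mice. The depth behind low genes such as Kcnmb1, Kcnn4 and Kcnj5 is unknown.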
